A study of Mus musculus with 6 samples.

Results

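The enzymes described here are the UDP-glucuronosyltransferases (Ugt) and the cytosolic sulfotransferases (Sult) of mouse liver. They were taken from the deposited FPKM table (fragments per kilobase of gene length, scaled to library depth) as the protein-coding genes named Ugt1a, Ugt2a, Ugt2b, Ugt3a or Sult followed by a digit. This gave 41 genes of 41838 in the table, 20 Ugt and 21 Sult, selected within the table by name. Of these, 21 had a mean of at least 1 FPKM over the 6 libraries and were tested, 15 Ugt and 6 Sult. The study compared livers of 3 Alkbh5flox/flox mice (flox), in which Alkbh5 is flanked by loxP sites and intact, with livers of 3 mice written Alkbh5-HKO in the protocols and Alkbh5-CKO in the titles (HKO). ALKBH5 is an enzyme that takes the methyl group off N6-methyladenosine in RNA. Both groups received normal chow. The series text writes that the mice were 9 weeks old, and the protocol that the chow lasted 9 weeks. The sources used here do not name the driver of the deletion, the deleted part of the gene, the strain, the sex or the feeding state at collection.

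As background, glucuronidation and sulfation are the main conjugation reactions of phase II metabolism. UGT enzymes sit in the endoplasmic reticulum and join glucuronic acid from UDP-glucuronate to bilirubin, bile acids, steroids, thyroid hormone and drugs. SULT enzymes work in the cytosol and transfer a sulfo group from the donor PAPS (3'-phosphoadenosine-5'-phosphosulfate) to phenols, steroids, bile acids and catecholamines. Both steps make the product more soluble in water, and transporters then carry it into bile or blood. Nuclear receptors that sense foreign compounds and liver transcription factors such as HNF4A are known to control many of these genes.

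Recovered depth was 14907384 to 17034754 reads per library. Here and below, values are listed for livers 1, 2 and 3 of each group in that order. Alkbh5 itself was at 17.8, 16.8 and 14.8 FPKM in flox and 0.508, 0.443 and 0.476 in HKO livers, so each library carried the level its label calls for, and it passed by limma (log2 -3.56, BH adjusted p = 8.14e-05). A value over the whole gene does not show which part was deleted. HKO library 1 stood apart on the first principal component of all tested genes (38.6, against 15.7 and 4.51 for HKO libraries 2 and 3 and -22.6 to -13.7 for flox). Values without this library are given beside the results it moves. Hepatocyte markers summed to 42232 to 51621 FPKM in flox and 47794 to 50518 in HKO libraries, with Alb highest, as a liver label calls for. Alb alone averaged 28517 FPKM in flox and 36341 in HKO. Of the 8 markers 2 had higher and 6 lower means in HKO (median log2 -0.11), where 48% of all tested genes had higher means. None of the 8 passed by limma with BH adjustment. Of the red cell markers, 5 of 5 tested genes were lower in each HKO liver than in any flox liver, as were 12.6% of all tested genes. Of these markers 1 passed by limma with BH adjustment, where 0.22% of all tested genes passed as lower. The red cell markers summed to 352 to 674 FPKM in flox against 105 to 209 in HKO libraries. The 6 lymphocyte markers summed to 1.99 to 3.09 FPKM in flox against 4.13 to 6.62 in HKO. Of these only Nkg7 (means 0.723 in flox, 1.39 in HKO) and Gzma (0.624 and 2.49) were tested. Both reached the limit of 1 FPKM only through the HKO group, and neither passed by limma with BH adjustment. The other lymphocyte markers overlapped between the groups, with Cd79a lower on average in HKO (0.632 and 0.523). The part of these cell types in the results was not tested. In bulk tissue, fewer cells of a type and less RNA per cell cannot be told apart.

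None of the 21 tested members passed over all genes, in either direction, by limma on log2(FPKM + 1) with Benjamini-Hochberg (BH) adjustment at 0.05, and none passed by limma voom on recovered reads. Across all 10453 tested genes 0.488% passed. An unadjusted p below 0.05 was found for 9 members and for 17% of all tested genes. Of these, 6 members were higher in HKO livers (Ugt1a9, Sult1c2, Ugt2b35, Sult1a1, Sult1b1 and Ugt1a5) and 3 were lower (Ugt2b38, Ugt2b37 and Ugt3a1), where 8.57% of all tested genes were higher and 8.44% lower. In 11 members the 3 HKO libraries lay wholly above (8) or below (3) the 3 flox libraries, against 25.4% of all tested genes (12.8% above and 12.6% below). The median log2 difference, HKO minus flox, was 0.12 over the 15 tested Ugt and 0.47 over the 6 tested Sult genes, against -0.015 over all tested genes. Without HKO library 1 these medians were -0.032 and 0.31. With each library left out in turn, the unadjusted p stayed below 0.05 in all 6 cases for Ugt2b38, Ugt2b37, Ugt2b35, Ugt1a9, Sult1a1 and Sult1b1, and in 1 of 6 for Ugt1a5, Ugt3a1 and Sult1c2. Ugt2b37 reached the limit of 1 FPKM only through the flox group (means 3.65 in flox and 0.729 in HKO). Its place in the counts of lower members carries that limit. Differences below are of mean log2(FPKM + 1), HKO minus flox, and group values are mean ± SD of FPKM (n = 3).

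**Figure D1:**
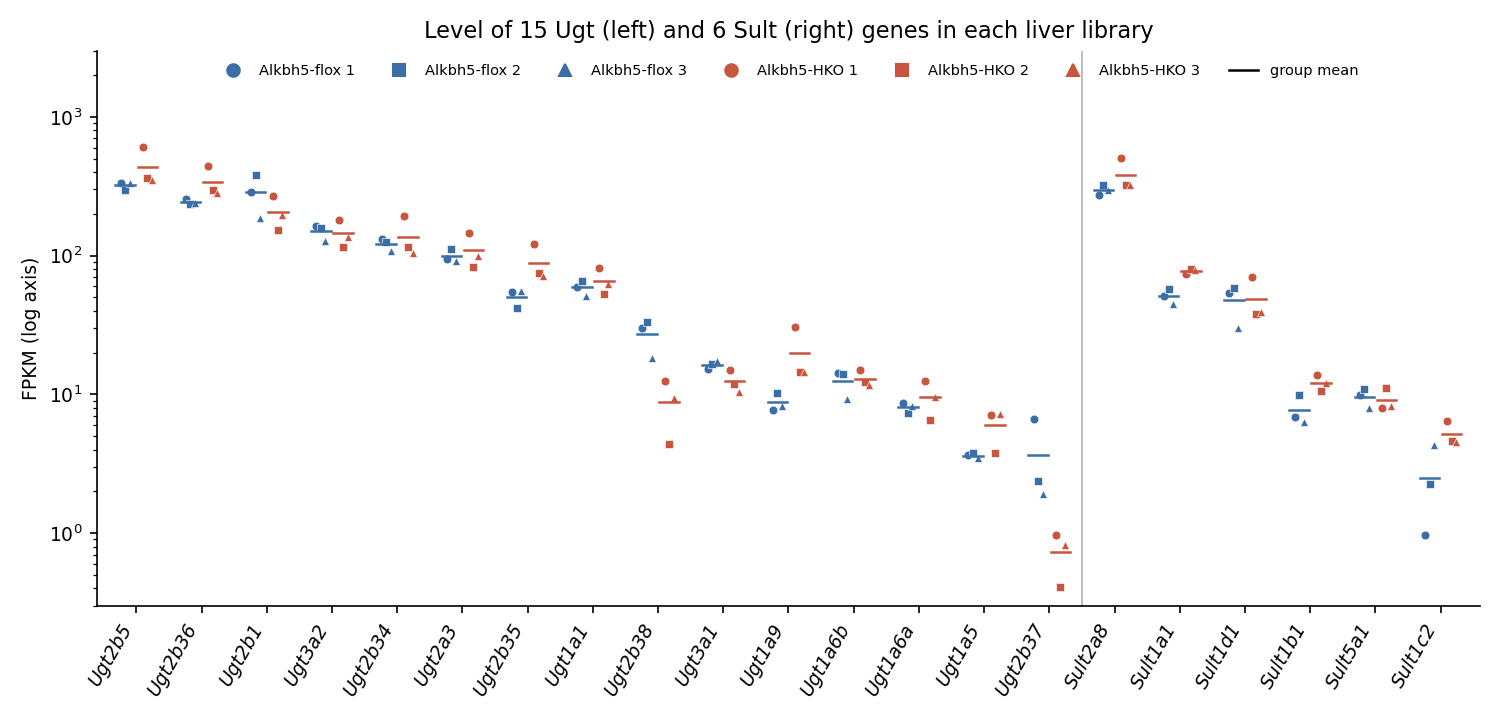
FPKM (log axis) of the 15 tested Ugt genes (left of the line) and the 6 tested Sult genes (right), with 1 point for each library and a bar at each group mean. Ugt2b38 and Ugt2b37 lie lower in all HKO libraries than in any flox library, and Sult1a1 and Ugt2b35 lie higher.

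The pool of Ugt transcripts, with the Ugt3a genes included, was dominated by the Ugt2b genes of chromosome 5. Summed over the 20 Ugt genes, it came to 1471, 1509 and 1260.3 FPKM in flox livers 1 to 3 and 2131, 1304 and 1367 in HKO livers 1 to 3. HKO library 1 was the highest of the 6 and HKO libraries 2 and 3 lay within the flox range, so the mean HKO pool was 1.13 times flox with all libraries and 0.945 times without HKO library 1. Ugt2b5 made up 23.1% of the pool in flox and 27.2% in HKO livers, Ugt2b36 17.3% and 21.4%, and Ugt2b1 19.9% and 12.9%. The order of means in flox was Ugt2b5, Ugt2b1, Ugt2b36, Ugt3a2 and Ugt2b34, and in HKO Ugt2b36 stood ahead of Ugt2b1. In flox livers Ugt2b1 (286 ± 98.99) could not be separated from its neighbours Ugt2b5 (323 ± 21.3) and Ugt2b36 (244 ± 11.9) beyond its own spread.

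Ugt2b38 (gene 100559, chromosome 5, 87409939 to 87424203, minus strand, GRCm38.p6) showed the largest difference among the tested members on the log2(FPKM + 1) scale. It was at 30.1, 33.1 and 18.1 FPKM in flox and 12.5, 4.38 and 9.401 in HKO livers. All 3 HKO livers lay below all 3 flox livers, and the HKO mean was 32.4% of flox (log2 -1.58, SE 0.37, limma with BH adjustment, adjusted p = 0.106). Ugt2b37 (gene 112417, chromosome 5, 87240492 to 87254788, minus strand), its relative in the same cluster, had the next largest difference. It was at 6.66, 2.38 and 1.92 FPKM in flox and 0.964, 0.406 and 0.816 in HKO livers, from 14 to 202 recovered reads per library. Flox liver 1 was well above the other flox livers, and the groups did not overlap. The HKO mean was 19.96% of flox (log2 -1.30, SE 0.36, limma with BH adjustment, adjusted p = 0.149). This gene reached the limit of 1 FPKM only through the flox group. With a pseudocount of 0.1 its log2 difference was -2.03, larger than the -1.70 of Ugt2b38, and by voom on recovered reads -2.20 against -1.73, so the order of the pair turns with the scale. Without HKO library 1 the differences were -1.87 for Ugt2b38 and -1.40 for Ugt2b37, and without flox library 1 that of Ugt2b37 was -0.87.

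The upstream sequences of these genes are shown because Ugt2b37 and Ugt2b38 are closer to each other than to any other Ugt2b gene there. Over the 250 bases before the start site (RefSeq, GRCm38.p6), Ugt2b37 and Ugt2b38 were identical at 95.3% of 236 aligned bases. Ugt2b5, whose level was not lower in HKO livers, matched Ugt2b37 at 88.5% of 226 and Ugt2b38 at 88.3% of 240 aligned bases. By percent of aligned bases the next Ugt2b pair, Ugt2b1 and Ugt2b37, matched at 79.8% of only 178, with 144 gap bases left out. The 3 sequences run 5′ to 3′ on the minus strand and end at the base before the start site. Capitals mark the bases of Ugt2b37 and Ugt2b38 that are aligned to a different base of Ugt2b5 or to none.
Ugt2b5, chr5:87140341-87140590: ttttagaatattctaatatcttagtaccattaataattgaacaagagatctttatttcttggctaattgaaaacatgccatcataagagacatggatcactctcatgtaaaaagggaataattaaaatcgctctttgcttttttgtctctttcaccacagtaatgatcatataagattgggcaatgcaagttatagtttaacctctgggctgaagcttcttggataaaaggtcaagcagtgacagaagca
Ugt2b37, chr5:87254789-87255038: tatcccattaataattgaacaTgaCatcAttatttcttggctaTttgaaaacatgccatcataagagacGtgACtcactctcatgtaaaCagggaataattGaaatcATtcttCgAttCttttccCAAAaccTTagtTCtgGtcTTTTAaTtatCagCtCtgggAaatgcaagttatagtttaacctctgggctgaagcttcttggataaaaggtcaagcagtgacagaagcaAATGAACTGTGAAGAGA
Ugt2b38, chr5:87424204-87424453: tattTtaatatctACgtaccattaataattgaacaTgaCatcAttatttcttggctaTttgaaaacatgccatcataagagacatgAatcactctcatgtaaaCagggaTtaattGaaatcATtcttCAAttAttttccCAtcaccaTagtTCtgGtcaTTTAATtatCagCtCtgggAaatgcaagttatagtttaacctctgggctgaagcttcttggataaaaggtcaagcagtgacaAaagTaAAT
The capitals gather in the middle of the windows, and the run before the start sites is largely shared. The last capitals of Ugt2b37 and Ugt2b38 lie past the end of the Ugt2b5 window. Transcripts of Ugt2b5 and Ugt2b38 also share sequence. Of the 150-base windows in Ugt2b38 transcripts (GENCODE M21), 19.2% occur in Ugt2b5 as well, and 19.5% of those of Ugt2b5 occur in Ugt2b38. No window of Ugt2b37 occurs in another gene. Reads from the shared part of Ugt2b5 and Ugt2b38 may have been dropped or counted for either, so the levels of these genes are uncertain to that extent.

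Ugt2b35, Ugt2b36 and Ugt2b5 lay higher in HKO livers. Ugt2b35, the 1 Ugt2 gene of the cluster on the plus strand, was at 54.3, 41.96 and 55.5 FPKM in flox and 120.4, 75.4 and 71.6 in HKO livers. The groups did not overlap, and the HKO mean was 1.76 times flox (log2 0.78, SE 0.23, limma with BH adjustment, adjusted p = 0.165). Ugt2b36 was at 257, 235 and 239 FPKM in flox and 442, 296 and 282 in HKO livers, again without overlap (log2 0.45, SE 0.20, limma with BH adjustment, adjusted p = 0.302). Ugt2b5, the most abundant member, was at 336, 299 and 335 FPKM in flox and 604, 360.0 and 349.8 in HKO livers. Its groups did not overlap either, but HKO livers 2 and 3 lay only slightly above flox (log2 0.39, SE 0.23, limma with BH adjustment, adjusted p = 0.422). Without HKO library 1 the differences of these genes were 0.54, 0.25 and 0.14, so most of the Ugt2b5 difference came from 1 library.

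Ugt2b1 was at 289, 384 and 186 FPKM in flox and 269, 153 and 198 in HKO livers. Flox liver 3 lay among the HKO livers and the groups overlapped (log2 -0.44, SE 0.31, limma with BH adjustment, adjusted p = 0.4904). Its difference was -0.20 without flox library 2 and -0.72 without flox library 3. Ugt2b34 was at 131, 126 and 107 FPKM in flox and 194, 115 and 104 in HKO livers and Ugt2a3 ranged from 82.4 to 145 FPKM. Both overlapped between the groups, with log2 differences of 0.12 and 0.10 that turned to -0.15 and -0.12 without HKO library 1. The 13 members on chromosome 5, which span 702 kb and hold 10 Ugt2 and 3 Sult1 genes, thus include the most negative differences of all tested members as well as positive ones. Along the chromosome, Ugt2b37 lies between Ugt2b5 and Ugt2a3, and Ugt2b38 follows Ugt2a3.

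**Figure D2:**
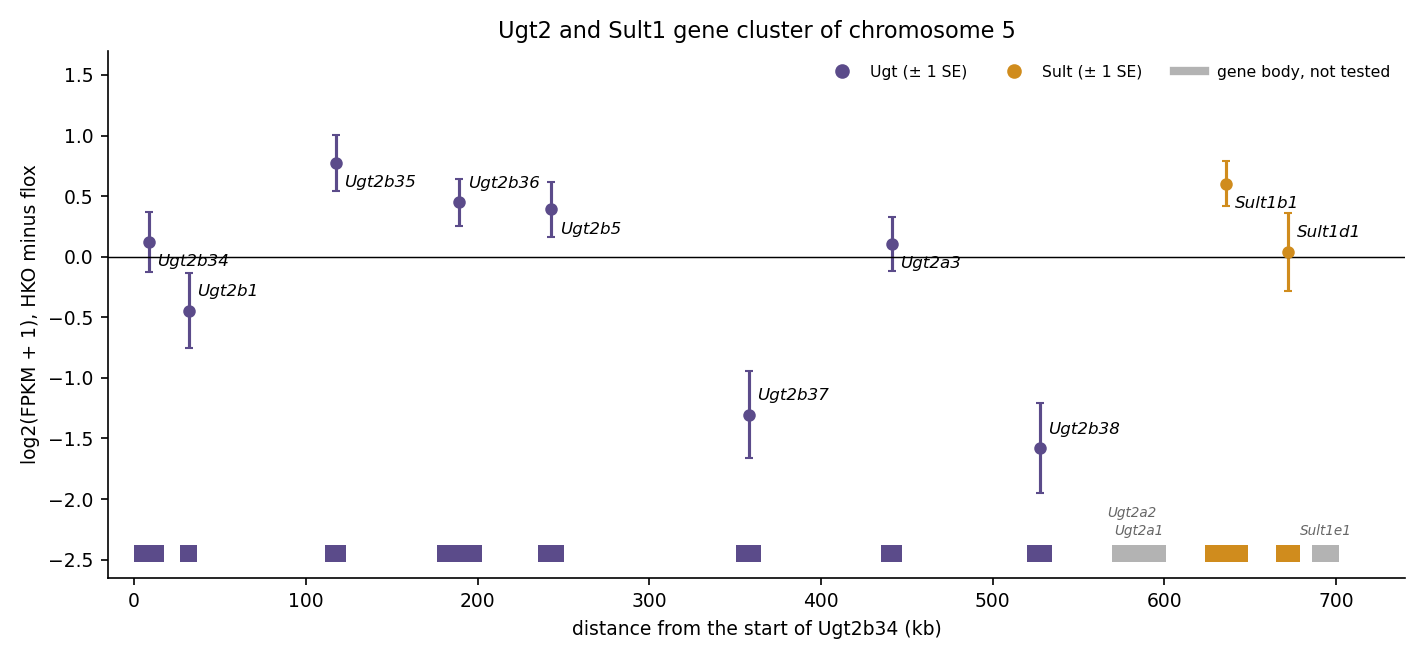
Difference of mean log2(FPKM + 1), HKO minus flox, ± 1 SE by limma, for the 10 tested members of the chromosome 5 cluster, against the distance of each gene in kb from the start of Ugt2b34. Bars at the bottom show gene bodies, grey for the 3 that were not tested, and Ugt2b37 and Ugt2b38 stand below 0 between genes that lie near or above it.

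The Ugt1a genes differ from the Ugt2b genes in structure: each has a first exon and promoter of its own, and all share the remaining exons at the end of the locus on chromosome 1 (88055411 to 88220002). In GENCODE M21, 50.3% to 60.6% of the exon bases of the 5 tested Ugt1a genes belong to at least 1 other Ugt1a gene. Of their 150-base transcript windows, 49.1% (Ugt1a6a) to 74.5% (Ugt1a1) occur in another gene. The deposited length of Ugt1a1 was 3229 bases, against 2224 exon bases in GENCODE M21, so the shared part of the counted genes may differ. The sources used here do not say how reads in shared exons were counted. Reads of 1 Ugt1a gene may therefore have counted for another, and differences between livers may be mixed across these genes. That was not tested. Ugt1a9, whose human counterpart acts on bulky phenols, was at 7.75, 10.2 and 8.28 FPKM in flox and 30.4, 14.5 and 14.4 in HKO livers. All HKO livers lay above all flox livers, and the HKO mean was 2.26 times flox (log2 1.01, SE 0.29, limma with BH adjustment, adjusted p = 0.152). HKO liver 1 held the highest value, and without it the difference was 0.67. Ugt1a1, the enzyme that conjugates bilirubin, was at 59.7, 65.9 and 51.4 FPKM in flox and 81.8, 53.1 and 62.4 in HKO livers. Its groups overlapped (log2 0.14, SE 0.19, limma with BH adjustment, adjusted p = 0.732), and the difference was -0.027 without HKO library 1. The difference between these genes was not tested.

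Ugt1a5 was at 3.63, 3.77 and 3.46 FPKM in flox and 7.15, 3.77 and 7.21 in HKO livers. HKO livers 1 and 3 lay well above the flox livers while HKO liver 2 was level with flox liver 2 (log2 0.57, SE 0.22, limma with BH adjustment, adjusted p = 0.253). The phenol-conjugating enzymes Ugt1a6a and Ugt1a6b ranged from 6.52 to 12.4 and 9.26 to 15.04 FPKM, overlapped between the groups and had log2 differences of 0.17 and 0.070. These became -0.021 and -0.032 without HKO library 1. Ugt1a7c (0.0185 to 0.152 FPKM), Ugt1a2 (0.01701 to 0.0779) and Ugt1a10 (0 to 0.0206) were nearly or wholly undetected, with at most 8 reads in a library.

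The Ugt3a enzymes, whose human relatives use sugar donors other than UDP-glucuronate, lie side by side on chromosome 15. Ugt3a1 was at 15.3, 16.6 and 17.3 FPKM in flox and 14.9, 11.9 and 10.4 in HKO livers. Each HKO liver lay below each flox liver, with HKO liver 1 close to the lowest flox liver (log2 -0.39, SE 0.15, limma with BH adjustment, adjusted p = 0.259). Ugt3a2 was more abundant, at 163, 159 and 128 FPKM in flox and 182, 115 and 136 in HKO livers, and overlapped between the groups (log2 -0.070, SE 0.20, limma with BH adjustment, adjusted p = 0.8805). Its difference turned to 0.078 without HKO library 2 and to 0.0041 when libraries were scaled to their summed reads.

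Among the sulfotransferases, Sult1a1 and Sult1b1 stood higher in every HKO liver. Sult1a1 (gene 20887, chromosome 7, 126672865 to 126690426, minus strand), the phenol sulfotransferase that acts on paracetamol, was at 50.8, 57.2 and 44.5 FPKM in flox and 73.8, 80.3 and 79.4 in HKO livers. The HKO livers were close together and all lay above flox. The HKO mean was 1.53 times flox (log2 0.61, SE 0.14, limma with BH adjustment, adjusted p = 0.09997). It had the smallest adjusted p of the 21 tested members, and the difference was 0.65 without HKO library 1. Sult1b1, which sulfates thyroid hormone, was at 6.86, 9.95 and 6.37 FPKM in flox and 13.8, 10.5 and 12.003 in HKO livers. Its groups did not overlap, though HKO liver 2 was close to flox liver 2 (log2 0.60, SE 0.19, limma with BH adjustment, adjusted p = 0.173). Sult1c2 was at 0.973, 2.26 and 4.29 FPKM in flox and 6.395, 4.62 and 4.51 in HKO livers, with a wide spread in flox and its highest flox liver just under the lowest HKO liver (log2 0.92, SE 0.34, limma with BH adjustment, adjusted p = 0.238). Its difference was 0.56 without flox library 1 and 0.78 without HKO library 1.

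Sult2a8, a bile acid sulfotransferase of male mouse liver, made up 71.6% of the summed Sult FPKM in flox and 70.9% in HKO livers. It was at 276, 323 and 298 FPKM in flox and 504, 323 and 325 in HKO livers. Only HKO liver 1 stood clear of the others, and the groups overlapped (log2 0.33, SE 0.20, limma with BH adjustment, adjusted p = 0.447). Without that library the difference was 0.12. Sult1d1, which sulfates catecholamines, was at 53.9, 58.3 and 30.3 FPKM in flox and 69.6, 37.7 and 39.5 in HKO livers, with log2 0.040 and -0.24 without HKO library 1. Flox liver 3 was the lowest. Sult5a1 was at 9.83, 10.9 and 8.002 FPKM in flox and 8.03, 11.2 and 8.24 in HKO livers, with overlapping groups (log2 -0.063). Summed over the 21 Sult genes, the level came to 399, 463 and 393 FPKM in flox livers 1 to 3 and 677, 468 and 469 in HKO livers 1 to 3. The HKO mean was 1.29 times flox, and 1.12 times without HKO library 1.

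**Figure D3:**
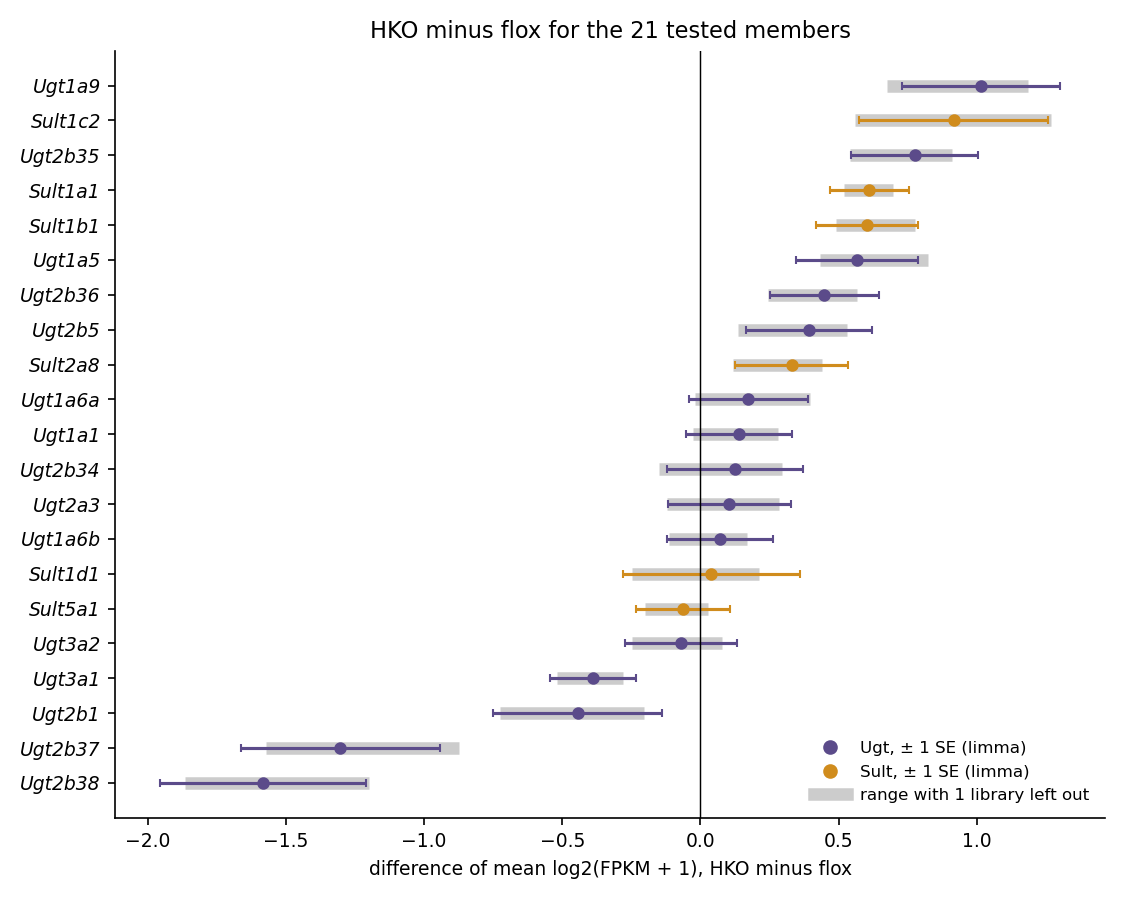
Difference of mean log2(FPKM + 1), HKO minus flox, with ± 1 SE by limma, for the 21 tested members in order of size, and in grey the range when each library is left out in turn. The 9 highest members keep positive and the 4 lowest keep negative values over that range, and the 8 between them reach both sides of 0.

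Most tested members were highest in liver 1 among the HKO livers. HKO liver 1 held the highest of the 6 values in 14 of the 21 tested members, where it did so in 27.6% of all tested genes. Within the HKO group it was the highest in 18 of 21 members and in 39.9% of all tested genes. The median member stood 0.56 above the flox mean on the log2 scale in HKO liver 1, and at -0.0085 and 0.088 in HKO livers 2 and 3. All 3 HKO livers were above all flox livers in 8 members: Ugt1a9, Ugt1a5, Ugt2b5, Ugt2b35, Ugt2b36, Sult1a1, Sult1b1 and Sult1c2. Ugt2b38 was lowest in HKO liver 2 and Ugt3a1 in HKO liver 3. Flox liver 3 held the lowest of the 6 values in 7 members, Sult1d1 and Ugt1a6b among them.

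**Figure D4:**
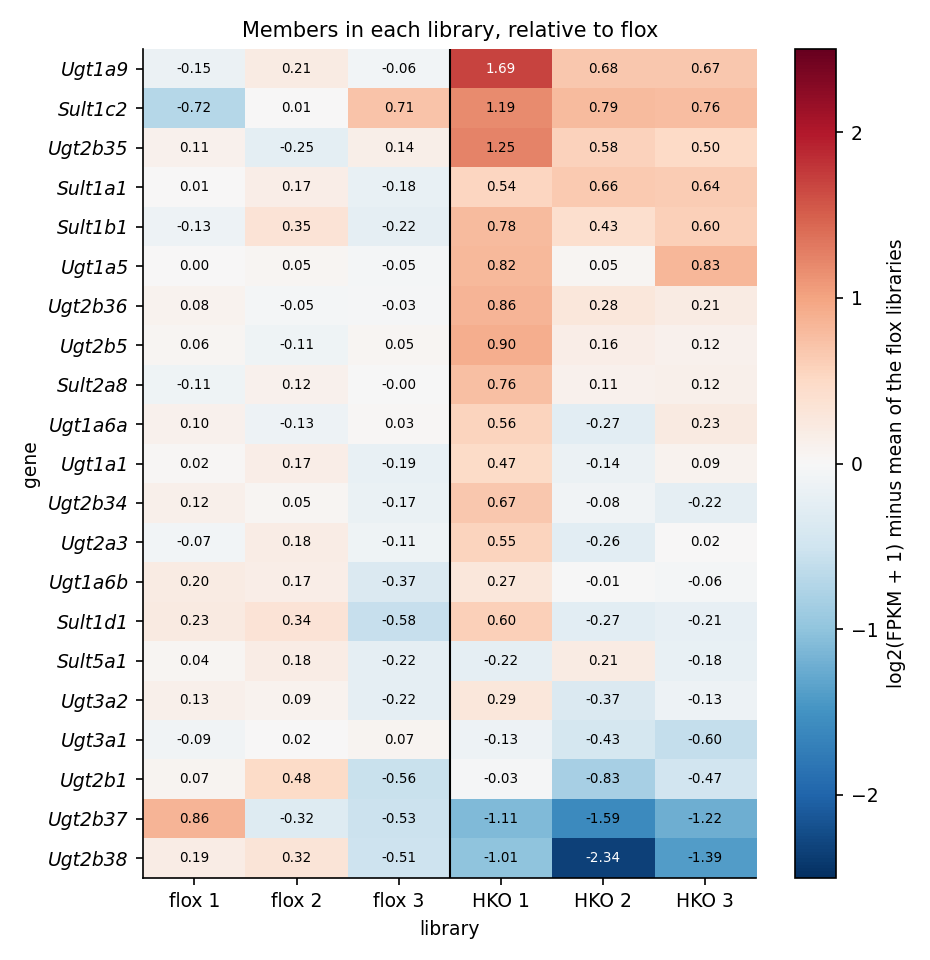
Level of each tested member (rows) in each library (columns) as log2(FPKM + 1) minus the mean of the 3 flox libraries, printed in the cell and coloured red above and blue below 0. HKO 1 is the reddest column, and the 9 members in the top rows, Ugt1a9 to Sult2a8, are above 0 in all 3 HKO columns.

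The remaining 20 members did not reach a mean of 1 FPKM. Sult2a7 was the highest of them, at 0.223 to 1.04 FPKM from 3 to 15 reads per library. Sult1e1, the oestrogen sulfotransferase, was at 0 to 0.229 FPKM, Sult6b1 at 0 to 0.0903, the cholesterol sulfotransferase Sult2b1 at 0 to 0.0626 and the brain enzyme Sult4a1 at 0 to 0.0497, with at most 4 reads in a library. A further 12 genes had no read in any library: Ugt2a1, Ugt2a2, Sult1c1, Sult2a1, Sult2a2, Sult2a3, Sult2a4, Sult2a5, Sult2a6, Sult3a1, Sult3a2 and Sult6b2. With no read, up to 3 reads per library remain possible, which is 0.08404 to 0.291 FPKM for these genes at the shallowest library. Ugt2a1 and Ugt2a2 share at least 92.8% of their 150-base windows with other genes and Sult2a2 20.6%, so reads dropped as shared cannot be seen here. Several Sult2a genes and Sult3a1 are known for higher expression in female than in male liver. The Y-linked gene Ddx3y was at 11.3 to 19.9 FPKM in the 6 livers, and Xist, the transcript of the inactive X chromosome, at 0 to 0.0173.

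Genes that supply the conjugation reactions were measured beside the enzymes. Ugdh, which makes UDP-glucuronate, was at 55.98, 29.6 and 38.1 FPKM in flox and 117, 88.9 and 71.6 in HKO livers. All HKO livers lay above all flox livers (log2 1.17, SE 0.27, limma with BH adjustment, adjusted p = 0.0997). Papss2, which makes PAPS, was at 38.3, 36.4 and 30.8 FPKM in flox and 87.3, 46.8 and 52.4 in HKO livers, also without overlap (log2 0.76, SE 0.24, limma with BH adjustment, adjusted p = 0.184). The differences were 0.98 and 0.49 without HKO library 1. Of the 5 tested genes of UDP-glucuronate supply 3 had higher and 2 lower means in HKO (median log2 0.39), and of the 11 of PAPS supply and sulfate handling 5 had higher and 6 lower means (median -0.10). A higher mean was found for 48% of all tested genes. None of either list passed by limma with BH adjustment. In each list 1 gene was higher at an unadjusted p below 0.05, as were 8.57% of all tested genes. Without HKO library 1, 7 genes of the PAPS list lay above and 4 below flox (median log2 0.061).

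Among transporters of conjugates, Slco1a4, an uptake carrier of organic anions, was at 8.62, 4.33 and 8.79 FPKM in flox and 40.7, 25.04 and 16.2 in HKO livers. The lowest HKO liver lay well above the highest flox liver (log2 1.74, SE 0.37, limma with BH adjustment, adjusted p = 0.0911). The export pumps Abcc2 (86.3 ± 22.7 in flox, 93.9 ± 19.2 in HKO, log2 0.14) and Abcc3 (52.4 ± 7.997 and 56.1 ± 4.96, log2 0.10) overlapped between the groups. All 8 tested transporters had a higher mean in HKO (median log2 0.14), where 48% of all tested genes did. None passed by limma with BH adjustment, and 1 was higher at an unadjusted p below 0.05, as were 8.57% of all tested genes. Without HKO library 1, 4 of the 8 lay above flox and 4 below (median log2 0.011), with Abcc2 at -0.020 and Abcc3 at 0.033.

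Genes of regulators that act on these enzymes were compared in the same way. Hnf4a, which encodes a main regulator of hepatocyte genes, was at 165, 164 and 151 FPKM in flox and 83.2, 116 and 133 in HKO livers, and the groups did not overlap (log2 -0.55, SE 0.19, limma with BH adjustment, adjusted p = 0.216). HKO liver 1 was the lowest, and without it the difference was -0.36. Nr1i2, which encodes the xenobiotic receptor PXR, was at 50.7, 57.3 and 31.9 FPKM in flox and 27.3, 23.9 and 31.6 in HKO livers, with flox liver 3 just above the highest HKO liver (log2 -0.70, SE 0.23, limma with BH adjustment, adjusted p = 0.198). Nr1i3, which encodes the receptor CAR, was at 110.4, 110.4 and 69.4 FPKM in flox and 54.2, 68.7 and 74.7 in HKO livers, with overlap (log2 -0.53, SE 0.23, limma with BH adjustment, adjusted p = 0.292). Nfe2l2, which encodes the antioxidant regulator NRF2, was at 12.6, 13.01 and 15.6 FPKM in flox and 20.97, 17.7 and 17.8 in HKO livers, higher in each HKO liver (log2 0.43, SE 0.14, limma with BH adjustment, adjusted p = 0.192). The dioxin receptor gene Ahr (log2 0.071) and Ppara (log2 -0.37) overlapped between the groups. Of 14 tested regulators 5 had higher and 9 lower means (median log2 -0.16), where 48% of all tested genes had a higher mean, and without HKO library 1 the counts were 2 and 12. None passed by limma with BH adjustment, and 1 was higher and 3 were lower at an unadjusted p below 0.05, against 8.57% and 8.44% of all tested genes.

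**Figure D5:**
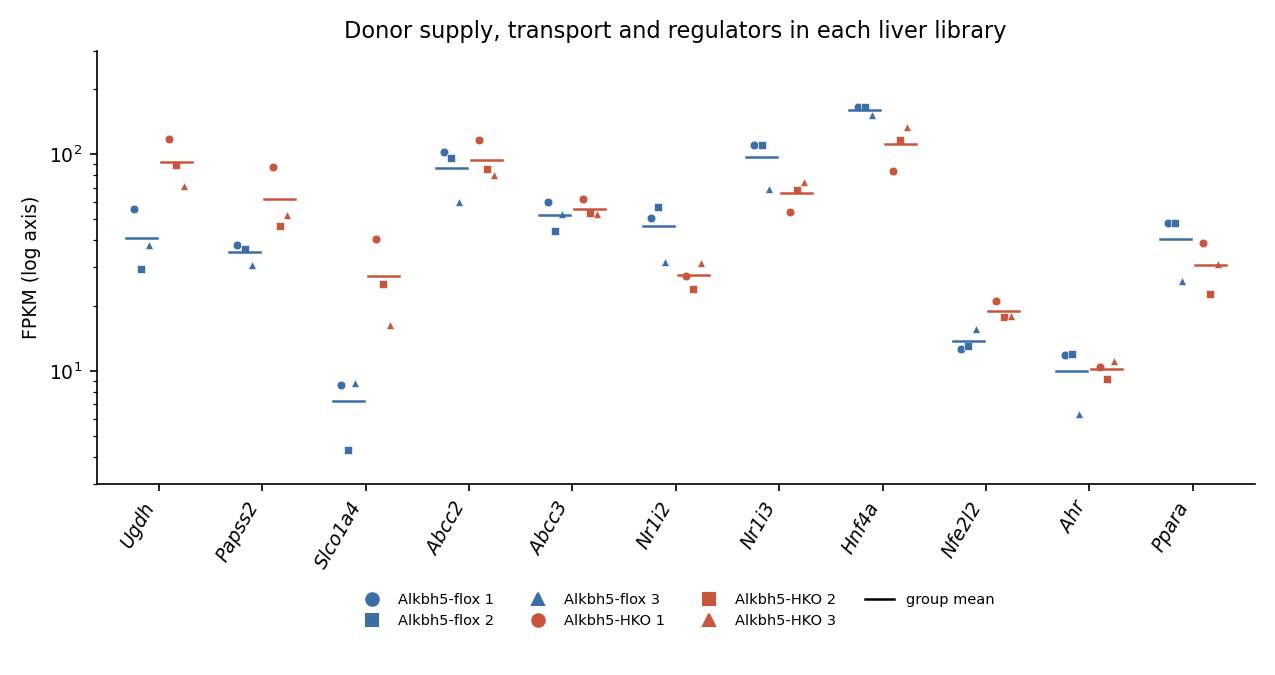
FPKM (log axis) of genes of donor supply (Ugdh, Papss2), transport (Slco1a4, Abcc2, Abcc3) and regulation (Nr1i2 to Ppara), with 1 point for each library and a bar at each group mean. The HKO points lie above the flox points for Ugdh, Papss2, Slco1a4 and Nfe2l2 and below them for Nr1i2 and Hnf4a.

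Known motifs of these regulators were searched on both strands in the 250 bases before the start site, for 35 members with 38 listed promoters. The core of the dioxin receptor element, GCGTG, occurred in 4 member promoters (10.5%), against 28.2% of 32851 promoters in the table. The letters CAAAGTCCA (HNF4) and TGACNNNGC (antioxidant response element) were not found in these windows and occurred in 0.384% and 10.2% of all promoters. The TATA box letters TATAAA occurred in 10 (26.3%, against 12.4%), from 9 genes. Of these genes only Sult2a8 and Ugt3a1 were tested, and the others had no read in any library. The matches lay at positions from 223 bases to 1 base before the start site. None of the 4 motifs holds another. Members of a locus share ancestry, so these promoters are not independent of each other, and a match of letters is no evidence of binding.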

How the data were processed

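RNA sequencing measured poly-A RNA in 6 livers, 3 per group, which the labels call biological replicates. Per the series text and the submitters' processing notes, read pairs were aligned to GRCm38.p6 with HISAT2 2.0.5 and counted per gene with featureCounts 1.5.0-p3, with CASAVA and DESeq2 1.20.0 named as further tools. The sources used here give neither the strand setting nor the treatment of shared reads. The deposited values are the authors' FPKM, 1 column per library. FPKM times gene length gave whole multiples of 1 step (tolerance 0.001) for 100% of values, which returned the reads: 14907384 to 17034754 per library. The size the authors divided by was 0.925 to 1.08 times that sum.

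The 10453 genes that averaged 1 FPKM or more were fitted with limma 3.58.1 (R 4.3.3, trend and robust) on log2(FPKM + 1), which shrinks the differences of low genes, HKO minus flox, with BH adjustment at 0.05 over all of them. Sequences were aligned with Biopython 1.88. Alternatives were a pseudocount of 0.1, no filter, a minimum of 5 FPKM, median-of-ratios scaling, voom on recovered reads, a replicate block, each library left out and, added after the data were seen, scaling to summed reads. Libraries of a group differed by a chi-square of 28.3 to 62.98 per degree of freedom, so none was a copy. Members were selected by gene name, but this set of enzymes and the related lists were proposed with earlier results of these data known. By the rule for named genes, every library's value is given for members with an unadjusted p below 0.05 or among the 5 highest of their family. Related genes are named where the unadjusted p was below 0.05 (at most 4 a list), and Nr1i2, Nr1i3, Ahr, Nfe2l2, Ppara, Ugdh, Papss2, Abcc2 and Abcc3 always. Ugt1a1 was added for its role, and Cyp4a14, Cyp2b10, Cyp2c29 and Cyp3a11 were added beside the target genes named by that rule. Sts was not found by name in the table, and 1 regulator is not reported here.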

Additional observations from a re-analysis of the deposited data

How the results depend on the processing

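No tested member passed limma with BH adjustment in any of the 13 alternatives, and the smallest member adjusted p over them was 0.0729. Median-of-ratios scaling left the log2 ratios of summed FPKM unchanged (0.179 for Ugt and 0.364 for Sult), so it was no separate check. With a library left out, members higher at an unadjusted p below 0.05 numbered 4 to 5 and members lower 2 to 3. The median log2 difference was then -0.032 to 0.28 for Ugt and 0.31 to 0.54 for Sult genes. Over all genes, 28 passed as higher and 23 as lower. A pseudocount of 0.1 gave 18 higher, no filter 0 higher and 1 lower (2514 at an unadjusted p below 0.05), and a library left out 0 to 29 higher and 1 to 41 lower. With the replicate number as a block, 1 gene passed as higher, 8 as lower and 0 members. Deviations from group means were not shared by same-numbered libraries (correlation 0.153, -0.145 and -0.0514), so the number was not taken as a pairing. Of the members' values under alternatives, 257 kept direction and call and 13 changed sign, and of those of related genes 238 kept both, 1 gained a call (Cyp2a4 without flox library 3) and 4 changed sign. All sign changes were in genes near 0, and their cause was not tested. With a library left out, log2 differences ranged over -0.25 to 0.078 for Ugt3a2, -0.15 to 0.30 for Ugt2b34, -0.12 to 0.28 for Ugt2a3, -0.027 to 0.28 for Ugt1a1, -0.021 to 0.40 for Ugt1a6a, -0.11 to 0.17 for Ugt1a6b, -0.25 to 0.21 for Sult1d1, -0.20 to 0.026 for Sult5a1, -0.20 to 0.21 for Ahr, -0.10 to 0.28 for Abcc2 and -0.012 to 0.21 for Abcc3. Scaled to summed reads, which moved the median of all genes from -0.015 to 0.046, Ugt3a2 was at 0.0041 and Sult5a1 at 0.0058.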

Other observations

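Classic target genes of regulators that act on conjugation genes (receptors and NRF2) had higher HKO means for 9 of 11 tested genes. This compares with 48% of all tested genes, and the median log2 difference of the list was 0.37. None passed by limma with BH adjustment, and 4 had an unadjusted p below 0.05, against 17% of all tested genes. Cyp1a2, a target of the dioxin receptor, was at 516, 551 and 488 FPKM in flox and 672, 783 and 655 in HKO livers, with all HKO livers above all flox livers (limma with BH adjustment, adjusted p = 0.191). Nqo1, a target of NRF2, was at 4.07, 2.09 and 1.69 FPKM in flox and 8.73, 4.11 and 4.25 in HKO livers. Gclc, another, was at 37.3, 35.5 and 68.6 FPKM in flox and 79.8, 80.1 and 68.7 in HKO livers, with flox liver 3 level with HKO liver 3. Pdk4, a target of PPAR-alpha, was at 9.35, 1.23 and 2.07 FPKM in flox and 0.525, 0.395 and 0.464 in HKO livers, lowest in the HKO livers. Pdk4, 1 of the 4, reached the limit of 1 FPKM only through the flox group, where flox liver 1 was well above the others. Among the other tested genes of the list, Cyp4a14 (log2 -0.027), Cyp2b10 (0.31), Cyp2c29 (0.50) and Cyp3a11 (0.80) overlapped between the groups. Cyp2b10 averaged 0.885 FPKM in flox and 1.47 in HKO, so it reached that limit only through the HKO group.

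Other genes known for a female bias in liver had unlike levels. Cyp2a4 was at 0.723, 3.4002 and 11.9 FPKM in flox and 109, 33.8 and 42.4 in HKO livers (limma with BH adjustment, adjusted p = 0.0911, and 0.0494 without flox library 3, within 0.0494 to 0.267 over its alternatives). Cyp2b9 was at 0, 0.172 and 2.65 FPKM in flox and 9.23, 2.86 and 6.52 in HKO livers. Its mean was below 1 FPKM in flox (0.940), so it reached that limit only through the HKO group. Cyp3a41a had no read in any library, as was the case for Sult2a1 and Sult3a1, and Cyp2b13 reached at most 0.0326 FPKM. Cyp2d9, known for a male bias, was at 1429, 1514 and 1027 FPKM in flox and 718, 689.9 and 948 in HKO livers, with no overlap (limma with BH adjustment, adjusted p = 0.149). Mup20, likewise male-biased, was at 177, 147 and 113 FPKM in flox and 112, 106 and 95.5 in HKO livers, and its lowest flox liver lay just above the highest HKO liver (limma with BH adjustment, adjusted p = 0.275). Sugar and sulfate transferases of other families overlapped between the groups in all 7 tested genes, where 25.4% of all tested genes did not overlap. The log2 differences of these 7 genes were -0.27 to 0.24.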
